A study of Mus musculus with 4 samples.

Results

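10 genes of the ATF4 and unfolded protein stress response were followed in the mouse inferior vena cava after 48 h of ligation, a model of stasis-induced venous thrombosis, in Cd39-null and wild-type mice. The genes were Atf3, Atf4, Ddit3, Ddit4, Trib3, Asns, Chac1, Sesn2, Hspa5 and Xbp1. They were chosen by name as a known pathway, but with earlier results of these data known. Counts of members and of related lists set against all kept genes may therefore not be independent of the data. A gene counted as measured where the array's annotation gave a probe set its symbol and no other, and this held for 9 of the 10 members, each with 1 probe set, among 18820 genes on the array. Ddit3, which encodes the pro-apoptotic factor CHOP, had only a probe set shared with its neighbour Mars1 and is given no value. All 9 were among the 14115 genes kept for the comparisons, those whose mean log2 value over the arrays lay at or above the 25th percentile of 2.29.

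The groups were Cd39-null mice with the vein ligated below the renal veins for 48 h, Cd39-null mice with sham surgery, wild-type mice ligated for 48 h, and wild-type mice with sham surgery, in which the vein was dissected and not tied. CD39, encoded by Entpd1, is a cell-surface enzyme that degrades extracellular ATP and ADP. All mice were on C57BL/6J, crossed to it for at least 8 generations, and were 8 to 10 weeks old; the sex of each pool is not given in the sources used here, nor whether the ligation was complete or partial or whether clot was part of the tissue extracted. RNA from 4 mice was pooled for each group and each pool was read on 1 array, so every difference between arrays below is a difference of 2 pools, given without a p-value, and the number of arrays limits the precision. Values are RMA log2 expression values as the authors deposited them, and a difference of 1 log2 unit is 2-fold.

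When proteins misfold in the endoplasmic reticulum (ER), 3 sensors respond. The kinase PERK (Eif2ak3) phosphorylates the initiation factor eIF2α, which slows most translation while favouring that of ATF4; the nuclease IRE1 (Ern1) splices the mRNA of Xbp1; and ATF6 is cut in the Golgi to release a transcription factor. ATF4 is also reached through the kinases for amino acid shortage (GCN2, Eif2ak4), heme shortage (HRI, Eif2ak1) and double-stranded RNA (PKR, Eif2ak2), and it switches on genes for amino acid uptake, tRNA charging and stress feedback. ATF6 and the spliced XBP1 act mainly on chaperones and on the machinery that removes misfolded proteins. The array reads total transcript and shows neither eIF2α phosphorylation, nor ATF4 protein, nor Xbp1 splicing.

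ATF4 binds, with C/EBP partners, a composite element called CARE (TGATGNAA), and ATF6 binds the ER stress response element (ERSE), in which CCAAT and CCACG are set 9 bases apart. Both were searched on either strand in RefSeq promoters (GRCm38.p6, 250 bases before to 50 after each start), together with the UPRE core (TGACGTGG) and the CRE (TGACGTCA); all 10 members had a promoter in the table. CARE was present in 4 member promoters, those of Asns, Atf3, Chac1 and Trib3, against 3.97% of all 32851 promoters, and ERSE in 1, that of Hspa5, against 0.119%. The UPRE core and the CRE were found in 0 of the 10, against 0.676% and 1.79% of all promoters. No match overlapped another. The promoters with a match are shown because their genes are compared by response below, with the matched bases in capitals, 5′ to 3′ in the direction of transcription.

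Atf3, chr1:191183284-191183583, minus strand: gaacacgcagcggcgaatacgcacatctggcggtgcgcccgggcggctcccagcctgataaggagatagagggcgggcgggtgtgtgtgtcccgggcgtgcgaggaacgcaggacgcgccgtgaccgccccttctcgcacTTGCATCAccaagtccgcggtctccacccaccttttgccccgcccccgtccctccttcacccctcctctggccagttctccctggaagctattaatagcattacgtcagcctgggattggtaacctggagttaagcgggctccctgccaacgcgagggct
Hspa5, chr2:34771840-34772139, plus strand: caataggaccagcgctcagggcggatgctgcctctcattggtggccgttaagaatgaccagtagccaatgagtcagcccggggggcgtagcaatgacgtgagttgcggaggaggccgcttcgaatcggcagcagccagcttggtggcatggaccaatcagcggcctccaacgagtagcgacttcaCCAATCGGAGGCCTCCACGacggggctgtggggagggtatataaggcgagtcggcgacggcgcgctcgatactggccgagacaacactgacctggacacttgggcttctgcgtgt
Trib3, chr2:152344011-152344092, minus strand: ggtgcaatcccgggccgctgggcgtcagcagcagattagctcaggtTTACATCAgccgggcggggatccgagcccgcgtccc
Asns, chr6:7693179-7693278, minus strand: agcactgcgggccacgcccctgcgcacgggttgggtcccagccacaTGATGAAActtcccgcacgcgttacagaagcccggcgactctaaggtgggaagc
Chac1, chr2:119351003-119351102, plus strand: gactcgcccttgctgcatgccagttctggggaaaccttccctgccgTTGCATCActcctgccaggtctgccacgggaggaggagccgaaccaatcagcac

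In Atf3 and Chac1 the element lies on the opposite strand, beginning 110 and 193 bases before the start, and reads TGATGCAA on its own strand. In Trib3 it also lies on the opposite strand, at base 15 after the start, and reads TGATGTAA. In Asns it begins 23 bases before the start and reads TGATGAAA in the direction of transcription. The ERSE of Hspa5 begins 65 bases before the start and also reads in the direction of transcription. A match describes these letters only and says nothing of binding in the vein.

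As a check of the labels, Entpd1 had a log2 value of 6.14 on the ligated array labelled Cd39-null, 4.16 in Cd39-null, sham, 6.17 in wild type, ligated, and 7.11 in wild type, sham. Cd39-null, sham, was thus 7.73-fold below wild type, sham, but the ligated arrays differed by -0.03 log2. The level after ligation runs counter to a Cd39-null label, so that array is called by its label throughout. It is not known here whether the probe set reads the disrupted exons. The ligated and sham arrays labelled Cd39-null are called the Cd39-null pair, and the wild-type pair uses neither of them. All 10 endothelial markers and 9 of 10 smooth muscle markers were above background on all 4 arrays, background being the 95th percentile of 1006 olfactory receptor probe sets on an array. The exception was Itga8, under background on the ligated array labelled Cd39-null. The arrays differed in other tissue. Brown adipocyte genes stood out in Cd39-null, sham, where the summed linear signal of 7 markers was 2462 units, against 173 in wild type, sham, and it was 59.1 on the ligated array labelled Cd39-null, against 56.8 in wild type, ligated. Platelet genes stood out on the ligated array labelled Cd39-null, with a summed signal of 2551 over 8 markers, against 244 in Cd39-null, sham, 568 in wild type, ligated, and 854 in wild type, sham. In such mixed tissue, fewer cells of a type and less RNA per cell cannot be told apart.

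**Figure D1:**
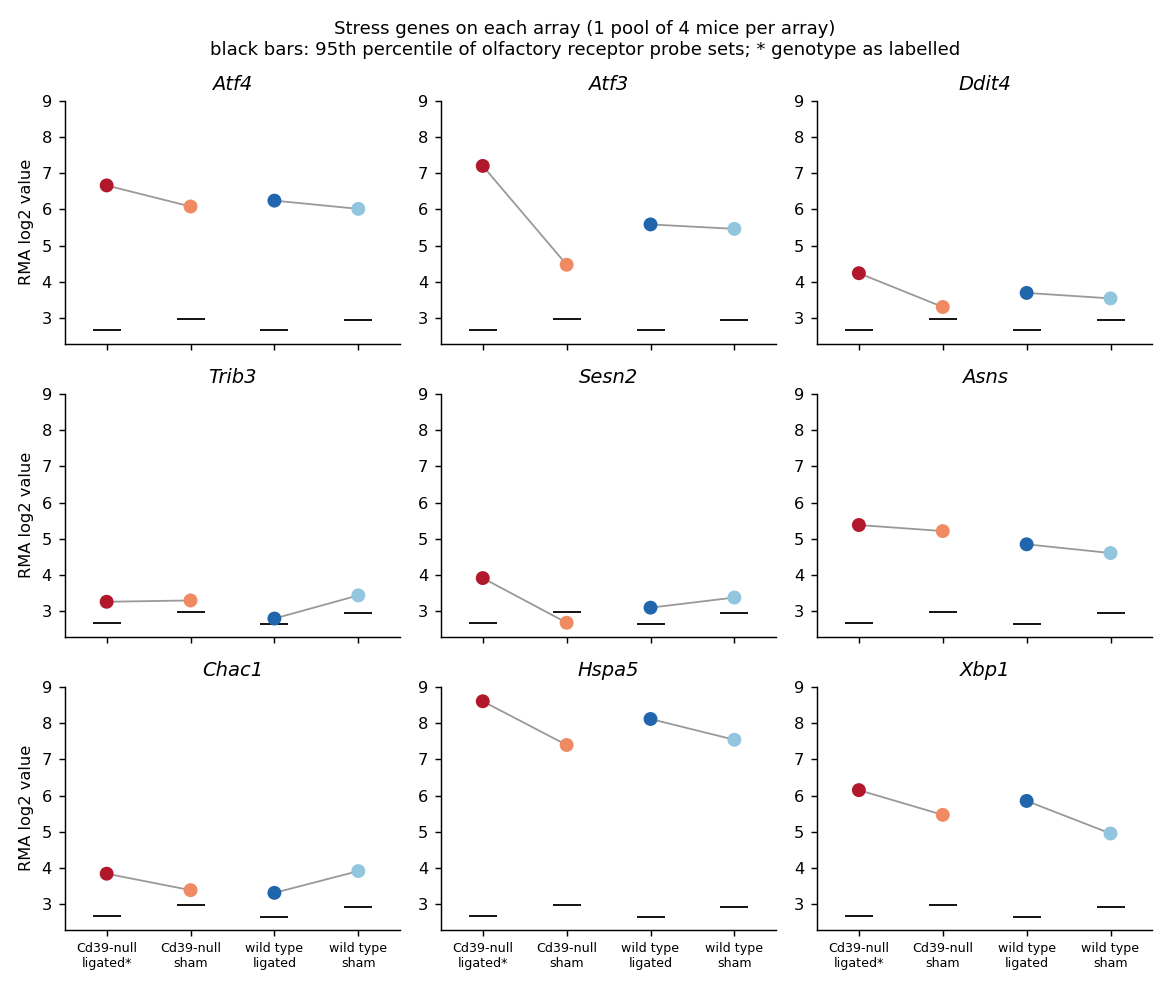
RMA log2 value (y axis) of each of the 9 measured stress genes on the 4 arrays (x axis), 1 point per pool of 4 mice, with grey lines joining the ligated and sham array of a genotype. Black bars mark the 95th percentile of 1006 olfactory receptor probe sets on that array, a stand-in for background; 7 of the 9 genes were highest on the ligated array labelled Cd39-null, and Sesn2 lay under the bar in Cd39-null, sham.

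Ligation was first compared with sham surgery in the genotype labelled Cd39-null. Atf3, Sesn2 and Hspa5 were at least 2-fold higher in the ligated vein of the Cd39-null pair than in its sham vein, and Ddit4 was just under that limit, while Trib3 and Asns hardly differed. These 3 of 9 members compare with 16.7% of all kept genes at least 2-fold apart, 10.9% higher and 5.8% lower; 0 members were 2-fold lower. The members' median difference was 0.68 log2, against 0.03 over all kept genes. Of the 2355 genes at least 2-fold apart in this pair 65.3% were higher, a share that was 51.5% after quantile normalisation and 53.9% after cyclic loess, so this pair is sensitive to scaling; the same 3 members passed 2-fold under both. Sesn2 was under background in Cd39-null, sham, and with all values raised to each array's background, a setting chosen after seeing the data, its difference was 0.95 log2 and 2 of 9 members (Atf3 and Hspa5) were at least 2-fold apart, against 15.6% of kept genes. With wild type, sham, in place of Cd39-null, sham, a comparison chosen after seeing the data, the 2-fold members were Atf3, Hspa5 and Xbp1, 3 of 9 against 9.52% of kept genes. Over the 4 arrays 7 of 9 members were highest on the ligated array labelled Cd39-null, against 25.5% of kept genes, and 4 of 9 (Atf3, Ddit4, Sesn2 and Hspa5) were lowest in Cd39-null, sham, against 31.2%.

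In the wild-type pair, Xbp1 and Hspa5 were higher after ligation by 0.90 and 0.57 log2, Trib3 and Chac1 were lower by 0.64 and 0.60 log2, and Atf3 was close to its sham value. None of the 9 members was 2-fold apart, against 10.2% of kept genes, 6.6% higher and 3.63% lower. Of the kept genes 2-fold apart in this pair 64.5% were higher. That share was 55.8% after quantile normalisation and 59.5% after cyclic loess, so this pair is sensitive to scaling too. The median of the members was 0.15 log2, against -0.01 over all kept genes. 6 members were higher after ligation in both genotypes (6 of 9, against 34.7% of kept genes), namely Atf3, Atf4, Ddit4, Asns, Hspa5 and Xbp1; after quantile normalisation Atf3 in wild type became -0.02 log2 and Asns in the Cd39-null pair -0.12 log2, so the direction of these values is not settled. Higher in both genotypes were 4 of 9 after quantile normalisation, against 31.1% of kept genes, and 5 of 9 after cyclic loess, against 33.1%. Ligation differences of opposite sign were found for 2 of 9 members, Chac1 and Sesn2, against 31.5% of kept genes.

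**Figure D2:**
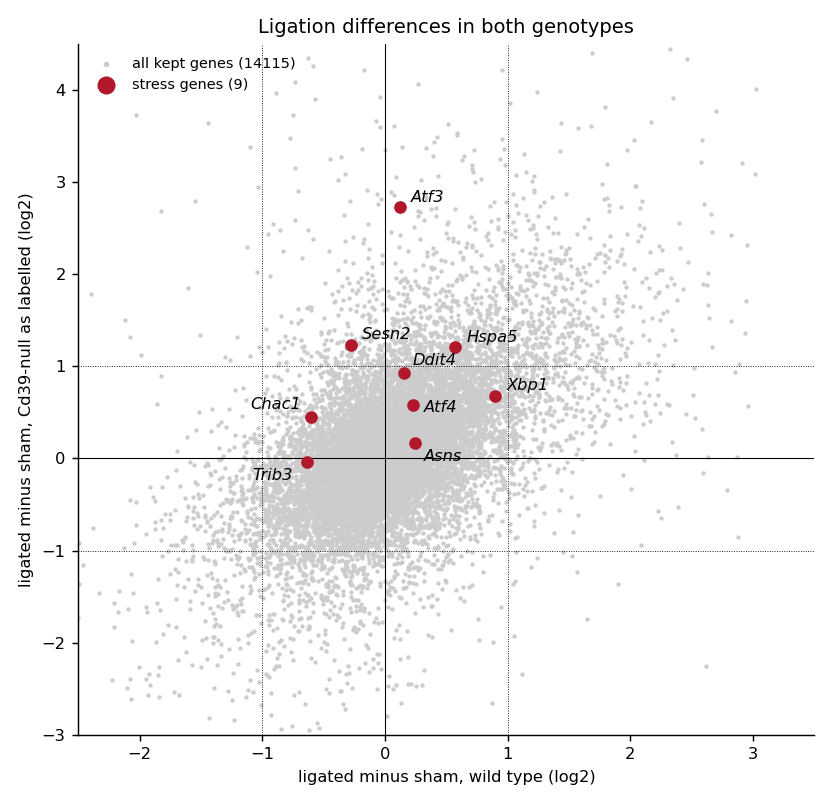
Ligated minus sham log2 difference in the genotype labelled Cd39-null (y axis) against the same in wild type (x axis) for 14115 kept genes (grey) and the 9 stress genes (red); dotted lines mark 2-fold and 66 genes lie outside the axes. Atf3 and Sesn2 sit high near the vertical zero line, Hspa5 and Xbp1 lie to the right of it, and Trib3 and Chac1 to its left.

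Atf4 encodes the transcription factor at the centre of the response, which is controlled largely at the level of translation. Its log2 value was 6.66 on the ligated array labelled Cd39-null, against 6.08 in Cd39-null, sham, and 6.24 in wild type, ligated, against 6.02 in wild type, sham. The ligated arrays were the higher ones in both genotypes, by 0.58 log2 in the Cd39-null pair and 0.23 log2 in the wild-type pair; the first was 0.31 log2 after quantile normalisation. By transcript Atf4 thus varied by less than 2-fold over the study.

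Atf3, a stress-induced repressor and activator of the same leucine zipper superfamily and a target of ATF4, varied most among the members. Expression stood at a log2 value of 7.20 on the ligated array labelled Cd39-null, against 4.48 in Cd39-null, sham, and 5.59 in wild type, ligated, against 5.47 in wild type, sham. The highest and the lowest value both belong to arrays labelled Cd39-null, with the wild-type arrays between them and nearly equal. The ligation difference was 2.73 log2 (6.62-fold) in the Cd39-null pair, with 99.1% of kept genes below it, and 0.12 log2 (1.09-fold) in wild type. Against wild type, sham, whose brown adipocyte signal was lower than that of Cd39-null, sham, the same ligated array was higher in Atf3 by 1.74 log2 (3.33-fold). Atf3 is also an immediate early gene, inducible by many signals outside this pathway.

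Sesn2 encodes sestrin 2, an ATF4 and NRF2 target that restrains the growth kinase mTORC1 when amino acids are short. The probe set gave a log2 value of 3.92 on the ligated array labelled Cd39-null, against 2.68 in Cd39-null, sham, and 3.10 in wild type, ligated, against 3.38 in wild type, sham. The Cd39-null pair differed by 1.23 log2 (2.35-fold) and the wild-type pair by -0.28 log2, in opposite directions. The Cd39-null, sham, value lay under the background of that array (2.97), which makes the difference at least 1.93-fold when it is set against that background. Against wild type, sham, it was 0.54 log2 (1.45-fold).

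Ddit4, also called REDD1, is an mTORC1 inhibitor induced by ATF4, hypoxia and glucocorticoids. Its level was a log2 value of 4.24 on the ligated array labelled Cd39-null, against 3.31 in Cd39-null, sham, and 3.70 in wild type, ligated, against 3.55 in wild type, sham. The order of the arrays was the same as for Atf3, with differences of 0.93 log2 (1.91-fold) in the Cd39-null pair and 0.15 log2 (1.11-fold) in wild type.

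The remaining ATF4 targets did not have the order of the arrays seen for Atf3, though Chac1 was also higher after ligation in the Cd39-null pair. Trib3, a pseudokinase that feeds back on ATF4 and CHOP, had log2 values of 3.26 on the ligated array labelled Cd39-null, against 3.30 in Cd39-null, sham, and 2.80 in wild type, ligated, against 3.44 in wild type, sham. It was 1.56-fold lower in the ligated wild-type vein, and the Cd39-null pair differed by -0.04 log2, which turned to 0.01 log2 after cyclic loess. Chac1, a glutathione-degrading enzyme downstream of ATF4, ATF3 and CHOP, had 3.85 on the ligated array labelled Cd39-null, against 3.39 in Cd39-null, sham, and 3.32 in wild type, ligated, against 3.92 in wild type, sham. Its differences were 0.45 log2 in the Cd39-null pair and -0.60 log2 in wild type, so the highest value was that of the wild-type sham vein. Both are dim genes, at 2.80 to 3.92 on all arrays, where the background percentiles were 2.66 to 2.97.

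Asns, the asparagine synthetase gene and a classic target of the amino acid response, differed more between the genotype labels than between the surgeries. It stood at a log2 value of 5.38 on the ligated array labelled Cd39-null, against 5.21 in Cd39-null, sham, and 4.85 in wild type, ligated, against 4.61 in wild type, sham. Both arrays labelled Cd39-null, including the ligated one whose Entpd1 level goes against that label, were above both wild-type arrays, by 0.53 log2 after ligation and 0.61 log2 after sham surgery. The ligation differences were 0.17 log2 in the Cd39-null pair and 0.24 log2 in wild type, and the first changed sign under either renormalisation. The 4 members with a CARE therefore had ligation differences in the Cd39-null pair of 2.73 (Atf3), 0.45 (Chac1), 0.17 (Asns) and -0.04 log2 (Trib3). Among all 329 kept genes with a CARE in their promoter, 10.9% were at least 2-fold higher in the Cd39-null pair and 7.90% in wild type. Of the 11186 kept genes with a promoter in the table, 11.2% were so in the Cd39-null pair and 6.68% in wild type.

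Hspa5 encodes BiP, the main ER chaperone of the HSP70 family, which holds the 3 sensors inactive and is a standard readout of ER stress. Its RMA log2 value was 8.60 on the ligated array labelled Cd39-null, against 7.40 in Cd39-null, sham, and 8.12 in wild type, ligated, against 7.54 in wild type, sham. Both ligated arrays were above both sham arrays, an order that Atf3, Atf4 and Ddit4 also had as deposited. The share of all kept genes with this order was not counted. Ligation differences were 1.21 log2 (2.31-fold) in the Cd39-null pair and 0.57 log2 (1.49-fold) in wild type, and 1.06 log2 (2.09-fold) with wild type, sham, as the reference of that ligated array.

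Xbp1, the transcription factor activated by IRE1 splicing, showed the same separation. Its log2 value was 6.15 on the ligated array labelled Cd39-null, against 5.47 in Cd39-null, sham, and 5.85 in wild type, ligated, against 4.96 in wild type, sham. Both ligated arrays were again above both sham arrays, with differences of 0.68 log2 (1.61-fold) in the Cd39-null pair and 0.90 log2 (1.87-fold) in wild type. The Cd39-null pair's difference was 0.39 log2 after quantile normalisation, and 1.20 log2 with wild type, sham, as the reference. Xbp1 is highly expressed in plasma cells, and markers of these moved with the reference array. The joining chain gene Jchain had 1.90 log2 on the ligated array labelled Cd39-null, against 8.06 in Cd39-null, sham, and 1.53 in wild type, ligated, against 1.91 in wild type, sham. The summed linear signal of all 8 plasma cell markers was 114 on the ligated array labelled Cd39-null, against 414 in Cd39-null, sham, and 118 in wild type, ligated, against 107 in wild type, sham; its part in the Xbp1 values was not tested. In the Cd39-null pair 5 of these 8 markers were at least 2-fold lower and 1 higher (Sdc1), with a median of -1.32 log2. In wild type 0 were 2-fold lower and 1 was higher (Fkbp11, by 1.12 log2), with a median of -0.33 log2. Only 3 of the 8 were above background on all arrays. Jchain, Mzb1, Tnfrsf17 and Irf4 were above it in Cd39-null, sham, alone. With values raised to background, Tnfrsf17 (-0.68 log2) and Irf4 (-0.64) were no longer 2-fold lower in the Cd39-null pair, while Jchain (-5.38) and Mzb1 (-1.91) were.

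A test across both genotypes was available from an additive model of genotype and ligation fitted with limma over all kept genes, which has 1 residual degree of freedom and counts a differing response of the genotypes as error. It called 0 of 14115 genes for ligation at an adjusted p of 0.05 (0.0%); an unadjusted p under 0.05 was found for 21.0% of genes and for 2 of 9 members, Hspa5 and Xbp1. Xbp1 had the smallest adjusted p among the members in limma's fit (0.169, mean difference 0.79 ± 0.23 log2, SE, higher in 2 of 2 pairs), followed by Hspa5 (0.176, 0.89 ± 0.27 log2, higher in 2 of 2 pairs). Atf3 had an adjusted p of 0.293 in the same limma fit with a difference of 1.42 ± 0.64 log2, and the adjusted p of the other 6 members lay between 0.349 and 0.917. No member therefore passed the test for ligation.

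The genotypes were next compared within each surgery, to see whether stress genes differed with CD39. Among ligated veins all 9 members were higher on the array labelled Cd39-null than in wild type, against 6445 of 14115 kept genes. The members differed by 0.30 (Xbp1) to 1.61 log2 (Atf3), with a median of 0.53 log2 against -0.03 over all kept genes. The Entpd1 level of that array goes against its label, so whether this comparison is one of CD39 is not settled. Only Atf3 was at least 2-fold apart (3.06-fold), 1 of 9 against 6.27% of kept genes apart and 3.61% higher. Sesn2 followed with 0.82 log2 (1.76-fold). Platelet and neutrophil markers were higher on the same array, with medians of 4.08 over 8 markers and 2.41 log2 over 9, while macrophage and smooth muscle markers were lower, with medians of -0.84 over 9 and -1.30 log2 over 10. The part of these cells in the members' differences was not tested.

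Among sham veins the picture was mixed. Asns and Xbp1 were higher in Cd39-null, sham, than in wild type, sham, by 0.61 and 0.51 log2, whereas Atf3, Sesn2 and Chac1 were lower by 0.99, 0.70 and 0.53 log2 (Sesn2 being under background in Cd39-null, sham), and the other 4 differed by less than 0.25 log2. None of the 9 was 2-fold apart, with Atf3 just short at 1.99-fold, against 6.48% of kept genes, 2.95% higher and 3.54% lower. Of the genes 2-fold apart 45.5% were higher, and 58.4% after cyclic loess. The sign of the genotype difference was opposite between ligated and sham veins for 6 of 9 members, against 45.6% of kept genes. Markers of several cell types moved in this comparison, with medians of 2.76 log2 for brown adipocytes, 1.15 for white adipocytes, 0.97 for plasma cells, 0.92 for neutrophils and 0.25 for macrophages. Medians were -1.33 log2 for smooth muscle, of which 8 of 10 markers were at least 2-fold lower, -1.19 for platelets and -0.96 for endothelium. The part of these cells in the members' values was not tested. In limma's additive fit over both surgeries, Asns had the smallest adjusted p among the members for genotype (0.725, 0.57 ± 0.22 log2, SE, higher in 2 of 2 pairs), and the fit called 0 of 14115 genes (0.0%), with 6.94% at an unadjusted p under 0.05.

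The ligation differences of the genotypes were then set against each other. The difference of the 2 differences, Cd39-null minus wild type, was at least 1 log2 for Atf3 (2.60), Sesn2 (1.51) and Chac1 (1.05), 3 of 9 members, against 12.5% of kept genes at least 1 log2 from 0 in either direction and 6.99% above; 0 members were at or below -1, against 5.5%. With 1 array a group no test of it exists, and it uses the array whose Entpd1 level goes against its label.

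The wider pathway was read from 7 lists of related genes, whose counts stand against 10.9% of all kept genes at least 2-fold higher and 5.8% lower in the Cd39-null pair, and 6.6% higher and 3.63% lower in wild type. Genes of aminoacyl-tRNA synthetases, which charge tRNAs and many of which ATF4 induces, all differed in 1 direction. The 16 kept were higher after ligation in both genotypes (16 of 16, against 34.7% of all kept genes), with a median of 0.79 log2 in the Cd39-null pair and 0.46 log2 in wild type; after quantile normalisation Iars and Mars1 in the Cd39-null pair and Qars in wild type were not above 0, and after cyclic loess Iars and Mars1 in the Cd39-null pair were not. At least 2-fold higher were 5 in the Cd39-null pair, a count that was 1 under either renormalisation, and 1 in wild type, Gars (1.12 log2), which was 0 after quantile normalisation. Yars was higher by 1.05 log2 in the Cd39-null pair and 0.90 in wild type, and Lars by 0.95 in the Cd39-null pair and 0.82 in wild type. Cars differed mainly in the Cd39-null pair, by 1.31 log2, against 0.13 in wild type. The CARE was found in 5 of the 11 promoters of this list that the table holds (45.5%).

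Genes of amino acid synthesis and transport under ATF4 had medians of 0.58 log2 in the Cd39-null pair and 0.54 log2 in wild type over 15 genes. Of these, 13 were above background on all arrays. At least 2-fold higher were 5 in the Cd39-null pair and 3 in wild type, with 0 at least 2-fold lower in either as deposited and 1 in the Cd39-null pair under either renormalisation. Psat1, of serine synthesis, had log2 values of 4.92 on the ligated array labelled Cd39-null, against 3.20 in Cd39-null, sham, and 4.62 in wild type, ligated, against 3.18 in wild type, sham. Ligated and sham arrays were thus apart in each genotype, by 1.72 log2 in the Cd39-null pair and 1.44 in wild type. The mitochondrial folate enzymes were higher in both pairs as well, Shmt2 by 0.76 log2 in the Cd39-null pair and 1.54 in wild type, and Mthfd2 by 1.41 in the Cd39-null pair and 0.80 in wild type. Slc7a11, the cystine transporter, had 4.71 on the ligated array labelled Cd39-null, and between 1.65 and 2.08 on the other 3 arrays, all under background. Set against the background of Cd39-null, sham, it was at least 3.33-fold higher in the Cd39-null pair, and no difference is given for wild type. The glutamine transporter Slc1a5 went in opposite directions, at -0.84 log2 in the Cd39-null pair and 0.64 in wild type.

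Chaperones and folding enzymes of the ER had medians of 0.67 log2 in the Cd39-null pair and 0.26 log2 in wild type over 16 genes. At least 2-fold higher were 4 in the Cd39-null pair (Ero1a, Pdia6, P4hb and Calr) and 1 in wild type (Pdia6); 1 was at least 2-fold lower in the Cd39-null pair, Dnajb9, and after quantile normalisation 1 was in wild type. Pdia6, a protein disulfide isomerase, was higher by 1.80 log2 in the Cd39-null pair and 1.36 in wild type. Ero1a, the oxidase that regenerates these isomerases and is also induced by hypoxia, had 8.09 on the ligated array labelled Cd39-null, against 5.26 in Cd39-null, sham, and 5.28 in wild type, ligated, against 5.02 in wild type, sham. Only the first of these arrays was high, with a difference of 2.83 log2 in the Cd39-null pair and 0.26 in wild type. Dnajb9, a co-chaperone of BiP and a target of spliced XBP1, had differences of -1.19 log2 in the Cd39-null pair and -0.90 in wild type. The ERSE was present in 7 of the 16 promoters of this list (43.8%), those of Calr, Canx, Creld2, Dnajc3, Ero1b, Hsp90b1 and Pdia6. Their ligation differences in the Cd39-null pair spread from -0.66 (Ero1b) to 1.80 log2 (Pdia6), as those of the CARE genes had. All kept genes with an ERSE in their promoter numbered 17, with a median of -0.15 log2 in the Cd39-null pair and 0.12 in wild type. At least 2-fold higher were 17.6% of them in the Cd39-null pair and 5.88% in wild type. Of all kept genes with a promoter in the table, 11.2% and 6.68% were so.

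Genes of ER-associated degradation had medians of 0.01 log2 in the Cd39-null pair and 0.39 log2 in wild type over 12 genes. The first turned to -0.27 log2 after quantile normalisation, with 4 of 12 above 0, and to -0.25 after cyclic loess, with 5 of 12 above 0, against 6 of 12 as deposited. Derl2, part of the channel that exports misfolded proteins, was at least 2-fold higher in both, by 1.23 log2 in the Cd39-null pair and 1.58 in wild type. Vcp, the ATPase that extracts them, was higher by 1.10 log2 in the Cd39-null pair and 0.40 in wild type. Genes at least 2-fold higher in the Cd39-null pair numbered 2 as deposited and 1 under either renormalisation. Derl3, which plasma cells express strongly, had differences of -1.18 log2 in the Cd39-null pair and -0.20 in wild type. Its value was 4.19 in Cd39-null, sham, the array with the high Jchain, and between 2.80 and 3.01 on the other 3. Its promoter and that of Syvn1 also hold the ERSE.

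The sensors and regulators themselves were within 2-fold in both pairs, with medians over 14 genes of 0.28 log2 in the Cd39-null pair and 0.11 in wild type; after quantile normalisation the second was -0.02. Mbtps1, the protease that first cuts ATF6, differed by 0.92 log2 in the Cd39-null pair and 0.47 in wild type, and Atf6 by 0.32 in the Cd39-null pair and 0.90 in wild type. The PERK gene Eif2ak3 differed by 0.70 log2 in the Cd39-null pair and 0.28 in wild type, and the GCN2 gene Eif2ak4 by 0.28 in the Cd39-null pair and -0.51 in wild type. Cytosolic heat shock genes had medians over 9 genes of 0.41 log2 in the Cd39-null pair and 0.35 in wild type. The small heat shock protein gene Hspb8 alone was 2-fold apart, by 1.13 log2 in the Cd39-null pair, against 0.35 in wild type, and under either renormalisation the list held 0 such genes.

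Genes listed here as other targets of ATF4 and CHOP went both ways, with medians over 15 genes of 0.50 log2 in the Cd39-null pair and 0.10 in wild type. Whether each is such a target in the vein was not tested. Only 10 of the 15 were above background on all arrays, and Fgf21 and Bbc3 were under it on all 4, which limits these medians. The cell cycle inhibitor Cdkn1a was higher by 1.66 log2 in the Cd39-null pair and 1.28 in wild type, and the growth arrest gene Gadd45a by 1.40 in the Cd39-null pair and 0.71 in wild type. Casp12, an ER-associated caspase, was at least 2-fold lower in both, at -1.66 log2 in the Cd39-null pair and -1.17 in wild type, as was the lipoprotein receptor gene Vldlr, at -1.20 in the Cd39-null pair and -1.08 in wild type. In limma's additive fit the smallest adjusted p among all pathway genes was 0.0952, for Pdia6 (1.58 ± 0.24 log2, SE) and Psat1 (1.58 ± 0.23 log2, SE), each higher in 2 of 2 pairs, so none passed.

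**Figure D3:**
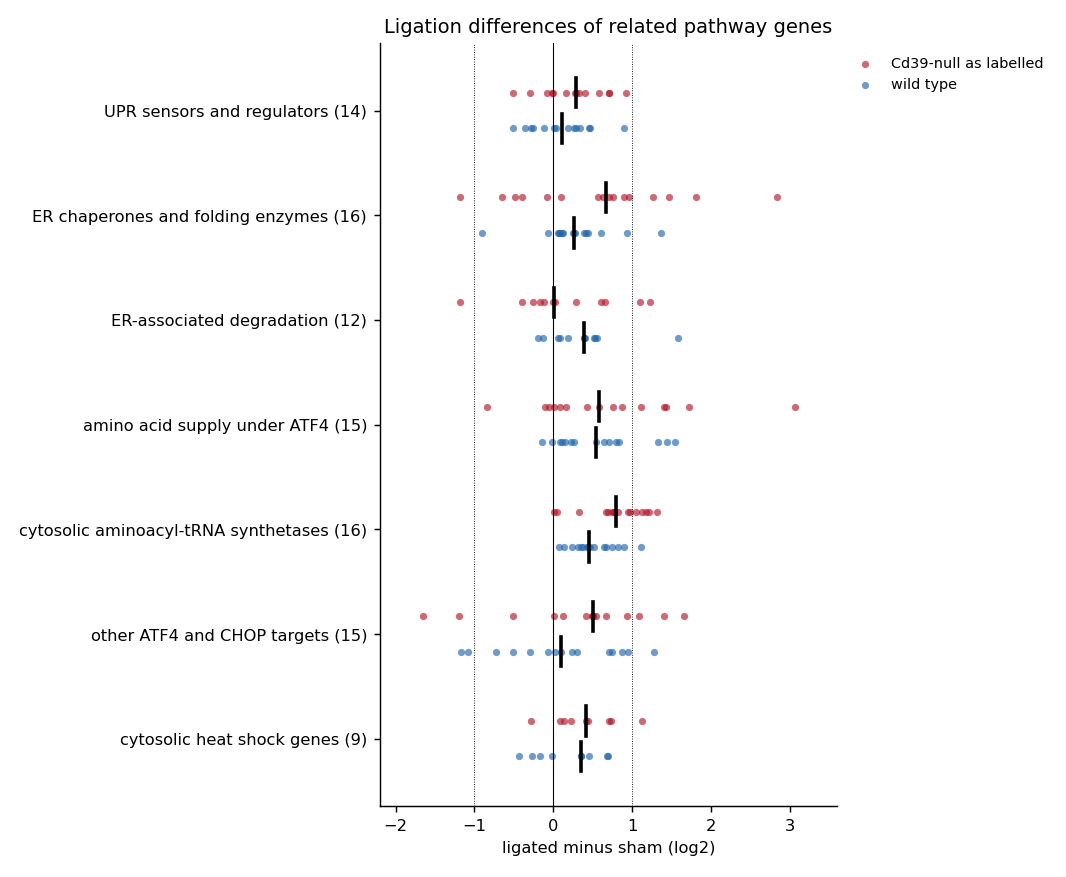
Ligated minus sham log2 difference (x axis) of each kept gene of the 7 related lists (rows, gene numbers in brackets) in the genotype labelled Cd39-null (red, upper) and wild type (blue, lower); black bars are medians and dotted lines mark 2-fold. All aminoacyl-tRNA synthetase points lie above 0 as deposited (Iars and Mars1 in the Cd39-null pair and Qars in wild type did not after quantile normalisation), and the farthest points to the right, Slc7a11 and Ero1a, belong to the Cd39-null pair; the Slc7a11 point is plotted against a sham value under background.

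The cell makeup read from marker genes differed between the pairs. Macrophage markers were higher by a median of 0.55 log2 in the Cd39-null pair and 2.11 log2 in wild type, with 4 of 9 at least 2-fold higher in the Cd39-null pair and 9 of 9 in wild type. Their summed linear signal was 1030 on the ligated array labelled Cd39-null, against 420 in Cd39-null, sham, and 1506 in wild type, ligated, against 324 in wild type, sham. All 8 platelet markers were at least 2-fold higher in the Cd39-null pair and 0 in wild type, where 5 were at least 2-fold lower. Neutrophil markers had medians over 9 genes of 0.95 log2 in the Cd39-null pair, with 4 at least 2-fold higher and 1 lower, and 0.06 in wild type, with 2 higher and 0 lower. They ranged widely in the Cd39-null pair, from -1.28 (Camp, under background after ligation) to 4.54 log2 (Csf3r). Endothelial markers had medians over 10 genes of 0.19 log2 in the Cd39-null pair and -1.35 in wild type. Whether any of these cells carried the differences of the stress genes was not tested.

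**Figure D4:**
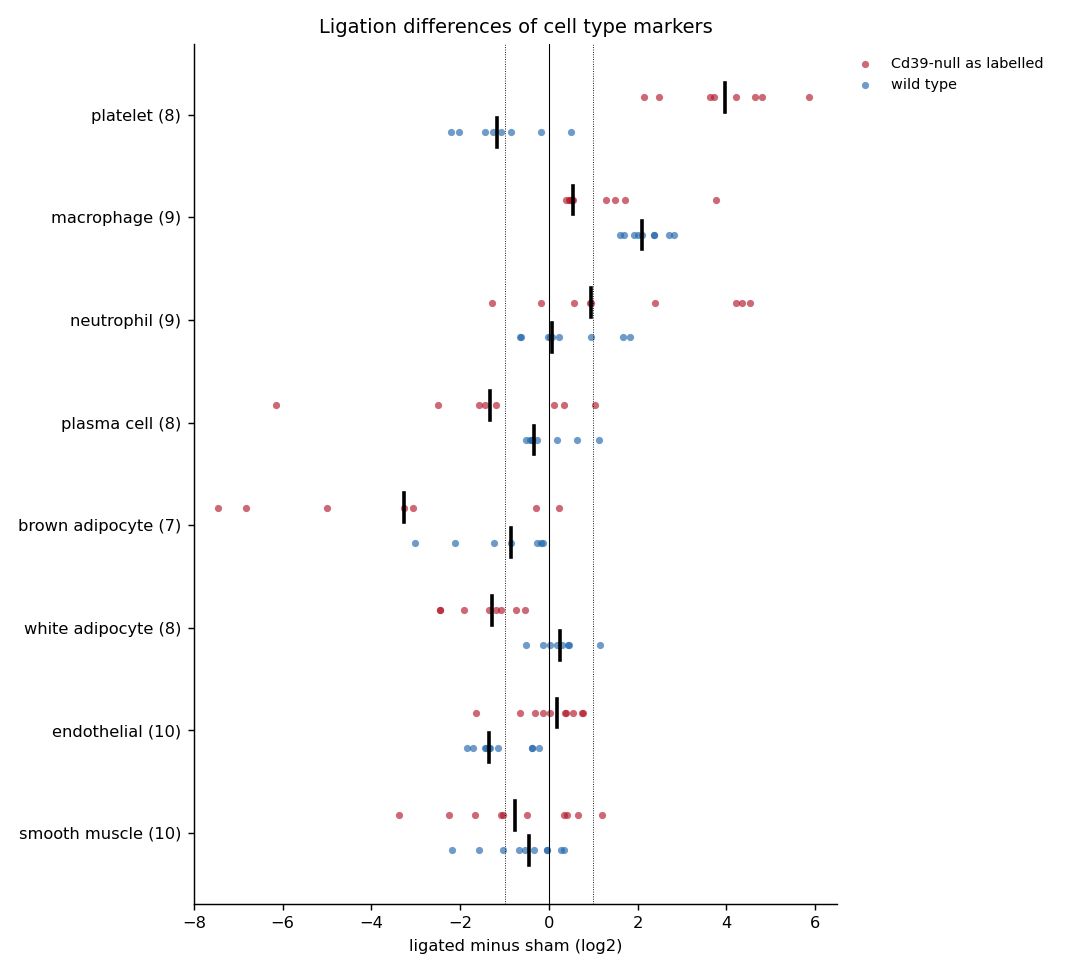
Ligated minus sham log2 difference (x axis) of each kept marker of 8 cell types (rows, gene numbers in brackets) in the genotype labelled Cd39-null (red, upper) and wild type (blue, lower); black bars are medians and dotted lines mark 2-fold. Platelet markers lie far to the right in the Cd39-null pair and mostly to the left in wild type, and brown adipocyte markers such as Ucp1 lie at the far left of the Cd39-null pair.

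Genes whose profile over the 4 arrays was closest to a member's were named by the Euclidean distance between log2 profiles centred on their means, among 13279 kept genes. For Atf3 they were Has2 (0.218 log2), Itga6 (0.258) and Ubash3b (0.263). Itga6, an integrin chain also carried by platelets, had 7.34 on the ligated array labelled Cd39-null, against 4.32 in Cd39-null, sham, and 5.58 in wild type, ligated, against 5.29 in wild type, sham. For Atf4 the closest were Ctbp2 (0.0293), Xpo1 (0.0345) and Relt (0.0482), and for Hspa5 they were Sertad1 (0.0486), Rp2 (0.0512) and Nop2 (0.0547). With 4 values per gene and so many candidates, such closeness is a description of these arrays.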

How the data were processed

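Total RNA of the vein was extracted with Trizol, and 50 ng were amplified and 3 µg of cDNA biotin-labelled with a whole-transcriptome kit, per the labels' protocols. The authors deposited log2 values, 1 per probe set and array. The submitters' processing notes name oligo and RMA; their versions and the genome build are not stated there. Because RMA corrects background, scales arrays to a common distribution and combines probes, a global shift in RNA content is not visible. The deposited probe set values were nevertheless not on 1 distribution. Their medians ran from 2.97 on the ligated array labelled Cd39-null to 3.04 in wild type, sham. Background percentiles ran from 2.66 in wild type, ligated, to 2.97 in Cd39-null, sham. Scanner files were not used here.

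The platform's annotation gave 21218 of the 35556 probe sets a single symbol, gave more than 1 to 1881 and named no gene for 12457; only the first entered gene comparisons, with the probe set of the highest mean log2 per gene. Older symbols in the lists were updated through RefSeq synonyms (GRCm38.p6), and promoters came from RefSeq of that build. Differences between arrays carry no test. The additive model was fitted with limma 3.58.1 (lmFit and eBayes, prior degrees of freedom 3.67) in R 4.3.3 with Benjamini-Hochberg adjustment over all kept genes. The code was run on simulated data with large ligation changes, equal in both genotypes. That run does not cover smaller changes or a differing response of the genotypes. Named genes were all members, Entpd1, up to 4 genes per pathway list by mean ligation difference and up to 3 by the difference of ligation differences, up to 3 markers per cell type, and the 3 nearest profiles of Atf3, Atf4 and Hspa5 (not Ddit3, which had no value); genes named as passing or failing a count, as holding a promoter motif or as changing sign under a renormalisation were added after their values were seen. Members and lists were chosen with earlier results of these data known. Alternatives were quantile normalisation, cyclic loess, the mean of probe sets, other filters and eBayes settings, and 3 chosen after seeing the data (another sham reference, no genotype term, and values raised to background).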

Additional observations from a re-analysis of the deposited data

Results flagged for a closer look

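Chac1 and Sesn2 had ligation differences of opposite sign in the genotypes, and their differences of ligation differences, Cd39-null minus wild type, were 1.05 and 1.51 log2. The genotype difference was positive after ligation and negative after sham surgery for Atf3 (difference of differences 2.60 log2), Ddit4 (0.78), Trib3 (0.60), Hspa5 (0.63), Chac1 and Sesn2. Opposite genotype signs were seen for 6 of 9 members, against 45.6% of kept genes, and opposite ligation signs for 2 of 9, against 31.5%. Each sign rests on 1 array per group and the differences between the groups were not tested. All use the ligated array labelled Cd39-null, whose Entpd1 level goes against its label.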

How the results depend on the processing

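Quantile normalisation and cyclic loess moved the members' differences by at most 0.291 log2. The mean of probe sets could not move them, since each member has 1 probe set. Of 135 recomputed values, those under the mean of probe sets included, 129 moved by less than the SD of the additive fit. That SD includes any differing response of the genotypes, so the count is a lenient one. The 6 that moved more were the ligation differences in the Cd39-null pair of Atf4 (0.31 after quantile normalisation and 0.33 after cyclic loess), Asns (-0.12 and -0.07) and Xbp1 (0.39 and 0.43). Of the list medians in the Cd39-null pair, those that moved by more than the median fitted SD of 0.237 log2 were, after quantile normalisation, the ER chaperones (0.42), ER-associated degradation (-0.27), aminoacyl-tRNA synthetases (0.52), heat shock genes (0.15) and the members (0.40), and after cyclic loess ER-associated degradation (-0.25) and the members (0.43); the cause was not tested. The median of all kept genes shifted by at most 0.0573 log2. With the filter at the median 7 members were left, 2 of them at least 2-fold apart in the Cd39-null pair, against 2074 of 9410 kept genes. The 2-fold counts of members were otherwise the same under these settings. In the sham comparison of genotypes 45.5% of the calls were higher, and 58.4% after cyclic loess. With wild type, sham, as the reference of the ligated array labelled Cd39-null, 3 members were 2-fold higher (Atf3, Hspa5 and Xbp1), while Sesn2 was not (0.54 log2). With values raised to background, also chosen after seeing the data, 2 of 9 members were 2-fold apart in the Cd39-null pair, against 15.6% of kept genes. By the difference of differences 3 of 9 members were at least 1 log2 above 0. Of kept genes 11.2% were that far from 0 in either direction and 6.51% above. Limma called 0 genes under every setting run, with unadjusted p under 0.05 for 2300 to 3548 genes for ligation; without a genotype term, a choice made after seeing the data, 2706 had one. The smallest adjusted p of a member for ligation in any limma setting was 0.162. No paired analysis was possible because each group holds 1 array, and no array could be left out of the additive fit, since none of its degrees of freedom would remain. Differences of genes near the background, such as Sesn2, Trib3 and Chac1, are limited by signal.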
